A study of Mus musculus with 12 samples.

Results

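The 4 transglutaminase genes Tgm1, Tgm2, Tgm3 and Tgm4 were followed through 12 RNA libraries of sorted mouse prostate cells. They were taken by symbol from a count table of 48795 genes, and all 4 were found in it. Tgm2 was chosen by its measured counts: earlier results of these data showed a large difference between LY6D states at low SCA1. Any difference of Tgm2 that involves those low-SCA1 libraries is therefore described and not tested. The mice were wild type C57BL/6 animals aged 6 to 8 weeks, and no group carried an engineered allele or received a treatment. Prostate cells lacking CD31, CD45 and Ter119, the surface proteins of endothelium, leukocytes and red cells, were sorted by LY6D (present, LY6D+, or absent, LY6D-) and by the amount of SCA1, which Ly6a encodes: high, intermediate (int) or low. Each of the 6 populations gave 2 libraries: LY6D+ SCA1high, LY6D+ SCA1int, LY6D+ SCA1low, LY6D- SCA1high, LY6D- SCA1int and LY6D- SCA1low. Replicates are called biological in the series text. No label names the animals or pools behind them, however, and p-values cover only library-to-library spread, which may be technical.

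Transglutaminases are calcium-dependent enzymes that join a glutamine of one protein to a lysine of another, or to a small amine, and so weld proteins into complexes that resist proteases. Transglutaminase 2, from Tgm2, is made in many cell types, binds guanine nucleotides, and also works outside the cell beside fibronectin, integrins and syndecan 4. Transglutaminase 4, from Tgm4, is secreted by the prostate and clots seminal vesicle proteins into the copulatory plug of rodents. Transglutaminases 1 and 3, from Tgm1 and Tgm3, cross-link the cornified envelope of skin and other stratified epithelia.

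The stretch of coding sequence around the active-site cysteine is shown for each gene because all 4 genes encode this cysteine. Their levels differed: Tgm2 and Tgm4 were abundant in these cells, and Tgm1 and Tgm3 were not. Each line gives 54 bases of the coding strand from the GENCODE M21 transcript with the longest coding sequence, 5′ to 3′, and the capitals mark 12 bases that include the codon of the cysteine. Each window lies within 1 coding exon on GRCm38.
Tgm1: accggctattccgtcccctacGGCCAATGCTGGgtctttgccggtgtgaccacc
Tgm2: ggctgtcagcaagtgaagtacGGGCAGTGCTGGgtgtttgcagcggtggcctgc
Tgm3: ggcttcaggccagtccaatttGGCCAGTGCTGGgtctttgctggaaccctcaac
Tgm4: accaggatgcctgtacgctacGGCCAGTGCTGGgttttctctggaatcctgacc

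The Tgm1 window is at chr14:55709398-55709451 on the minus strand, in exon 7 of 15. That of Tgm2 is at chr2:158131335-158131388 on the minus strand, in exon 6 of 13. Tgm3 has it at chr2:130029745-130029798 on the plus strand, in exon 6 of 13, and Tgm4 at chr9:123051200-123051253 on the plus strand, in exon 7 of 14. The windows of Tgm3 and Tgm4 were the most alike, with 36 of 54 bases the same (66.7%), and those of Tgm2 and Tgm4 the least alike, with 28 of 54 (51.9%). The libraries read the 3' ends of transcripts, so these exons are not where the counts below were collected.

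Totals ran from 8436185 to 20022077 counts per library, and 7512 to 12202 genes had at least 10 counts. Levels are given in CPM, that is counts per library total after TMM scaling; since a 3' tag is counted once per transcript end, CPM are nearly independent of transcript length. Over genes, replicates of a population had correlations of only 0.66 to 0.71. For 10 of the 12 libraries the highest correlation was with a different population, and for 2 it was with the own replicate. LY6D- SCA1low replicate 2, which was closest to LY6D- SCA1high replicate 1 (0.73, and 0.68 to its own replicate), and LY6D+ SCA1high replicate 2, the shallowest, were left out together in one alternative and are called the doubted libraries below, although the first of these traits was common to most libraries. Markers of luminal epithelium (Krt8, Krt18, Epcam, Cd24a, Prom1 and Cdh1) summed to 742 to 1621 CPM in the 12 libraries, and those of other cell types are given beside Tgm2 and Tgm4.

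Of the 4 genes, Tgm2 and Tgm4 were abundant, Tgm1 was nearly silent and Tgm3 was not detected. Tgm1 (ENSMUSG00000022218, chr14:55700009-55713926) had 25 counts in LY6D- SCA1int replicate 2, 2.15 CPM. It had 1 count in each of LY6D+ SCA1low replicate 2 and LY6D- SCA1low replicate 2, and 0 in the other 9 libraries. The single library with more than 1 tag has a replicate at 0, so the 25 counts are not shared by its population. Tgm3 (ENSMUSG00000027401, chr2:130012349-130050399) had 0 counts in all 12 libraries, which at 3 counts as the limit allows a level of up to 0.127 CPM in the deepest and 0.353 CPM in the shallowest library. Neither gene passed the filter on low counts, so 2 of the 4 members were tested.

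The rest of the family was as low. Tgm5, an epidermal transglutaminase, had 59 counts (5.06 CPM) in LY6D- SCA1int replicate 2, the same library that held the Tgm1 tags, and 0 to 3 counts in each of the other 11. Tgm6 had 1 count in all, as did F13a1, the catalytic chain of clotting factor XIII, and Epb42, a red cell membrane protein of the family without enzyme activity. Tgm7 had 0. None of these 5 genes passed the filter on low counts.

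**Figure D1:**
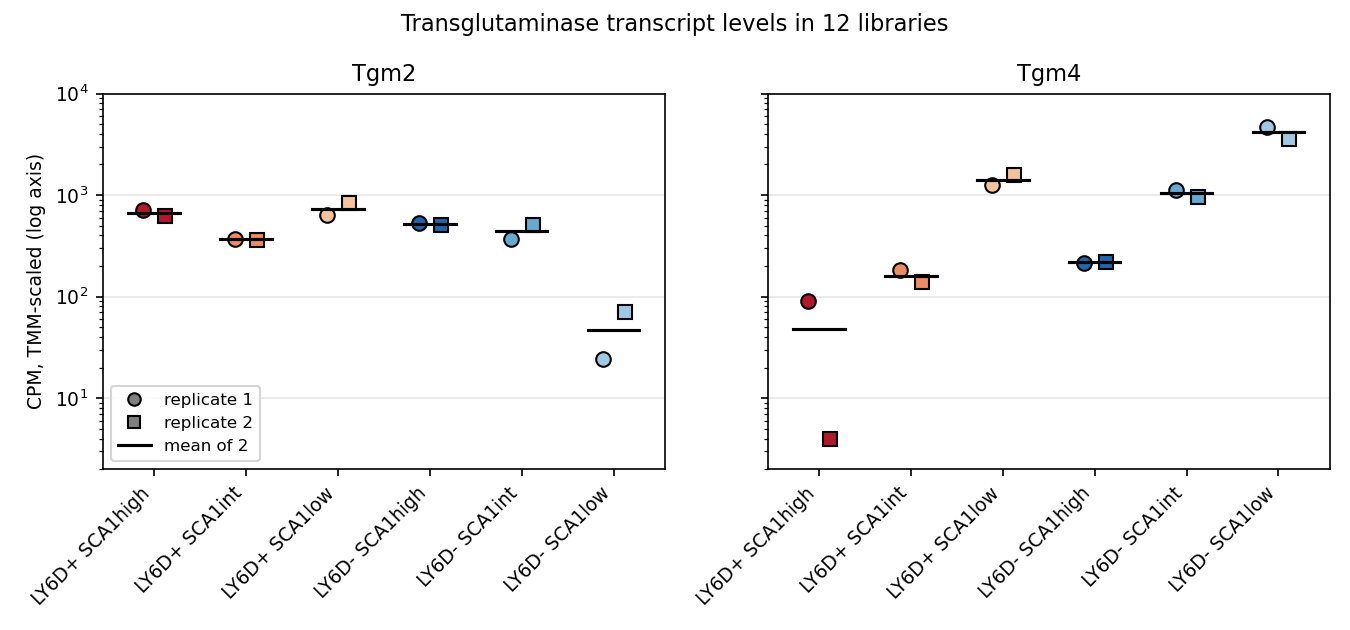
Transcript levels of Tgm2 (left) and Tgm4 (right) in CPM on a log axis; each point is 1 library, circles are replicate 1, squares are replicate 2 and bars are means of 2. Tgm2 lies between 365 and 835 CPM in 10 libraries and at 24.4 and 70.0 CPM in LY6D- SCA1low, where Tgm4 is at its highest.

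Tgm2 (ENSMUSG00000037820, chr2:158116402-158146436, minus strand) was high in 5 populations and low in 1. In LY6D- SCA1low it stood at 24.4 and 70.0 CPM in replicates 1 and 2. In LY6D+ SCA1low it stood at 639 and 835 CPM. These are the libraries on which the gene was picked, and that both LY6D+ values exceeded both LY6D- values was the ground for the choice.

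In the remaining 4 populations Tgm2 ran within a narrow band. LY6D+ SCA1high libraries held 716 and 617 CPM, and LY6D- SCA1high libraries 536 and 504 CPM. LY6D+ SCA1int libraries held 368 and 365 CPM, and LY6D- SCA1int libraries 373 and 505 CPM. At SCA1high both LY6D+ libraries were above both LY6D- libraries, whereas at SCA1int both LY6D+ libraries were below both LY6D- libraries. The order of the population means was LY6D+ SCA1low (737 ± 139 CPM, SD, n = 2), LY6D+ SCA1high (666 ± 69.7), LY6D- SCA1high (520 ± 22.6), LY6D- SCA1int (439 ± 92.9), LY6D+ SCA1int (366 ± 2.28) and LY6D- SCA1low (47.2 ± 32.3). Libraries overlapped between LY6D+ SCA1low and LY6D+ SCA1high and between LY6D- SCA1high and LY6D- SCA1int. By mean level Tgm2 ranked 201 among the 15270 tested genes in LY6D+ SCA1high and 2900 in LY6D- SCA1low.

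Tests of Tgm2 were confined to libraries that its choice had not used. Of these 4 tests edgeR called 0, and 0 reached an unadjusted p below 0.05. At SCA1high the log2 fold change of LY6D+ over LY6D- was 0.36 ± 0.45 (SE), with a 95% interval of -0.57 to 1.28 and an adjusted p of 0.836 by edgeR's quasi-likelihood test, which called 0.262% of all tested genes in this comparison. At SCA1int it was -0.26 ± 0.45, with an interval of -1.19 to 0.67 and an edgeR adjusted p of 0.926, where 0.203% of genes were called. The difference between these LY6D effects was 0.62 ± 0.64 (edgeR adjusted p = 0.865, with 0.0262% of genes called). SCA1high exceeded SCA1int, averaged over LY6D, by 0.55 ± 0.32 on the log2 scale, with an interval of -0.10 to 1.21 (edgeR adjusted p = 0.658, with 0.138% of genes called). Each of these intervals includes no difference and, at 1 end, a difference above 2-fold.

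As a description without a test, Tgm2 was 15.6-fold higher in LY6D+ SCA1low than in LY6D- SCA1low, a log2 fold change of 3.96 ± 0.51, in a comparison that called 0.472% of all genes. The value was 3.16 without LY6D- SCA1low replicate 1 and 4.90 without replicate 2, so the size rests on which of the 2 LY6D- libraries is kept. Within LY6D- cells SCA1high exceeded SCA1low by 3.46 ± 0.50, and within LY6D+ cells the log2 fold change was -0.15 ± 0.45 (0.32 when scaled by library size alone). The LY6D effect at SCA1high minus that at SCA1low was -3.61 ± 0.66 on the log2 scale. Because these are bulk samples, fewer cells of a type and less RNA per cell cannot be told apart, for this and every result below.

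Markers of several other cell types differed between the populations. The 10 basal epithelial markers, among them Krt5, Krt14 and Trp63, summed to 2609 to 5006 CPM in LY6D+ libraries, 693 to 738 CPM in LY6D- SCA1high, 1913 to 2139 CPM in LY6D- SCA1int and 237 to 366 CPM in LY6D- SCA1low. The lowest basal sums and the lowest Tgm2 levels were thus in the same 2 libraries. Among the other 5 populations the basal sums did not follow Tgm2: LY6D+ SCA1int had the lowest Tgm2 of these 5 with basal sums of 3542 and 5006 CPM. The 15 endothelial markers, among them Pecam1, Kdr and Cdh5, summed to 4130 to 4851 CPM in LY6D- SCA1high, 1279 to 1757 CPM in LY6D- SCA1int, 365 to 797 CPM in LY6D- SCA1low and 20.0 to 497 CPM in LY6D+ libraries. Pecam1 encodes CD31, by which endothelium was to be removed in the sort, and it stood at 573 and 401 CPM in the LY6D- SCA1high libraries, so its transcript was present in cells gated as lacking CD31. Within LY6D- cells the endothelial sums and the Tgm2 means fell in the same order. Tgm2 had means of 520 CPM at SCA1high, 439 CPM at SCA1int and 47.2 CPM at SCA1low. Across LY6D states the orders differed: Tgm2 was highest in LY6D+ SCA1low, where the endothelial sums were 30.3 and 153 CPM. LY6D- SCA1low replicate 2, which held more Tgm2 than replicate 1, also held more endothelial (797 against 365 CPM) and more basal tags (366 against 237 CPM). The 13 fibroblast and smooth muscle markers, among them Dcn, Col1a1 and Acta2, summed to 313 and 247 CPM in LY6D- SCA1low. In the other 10 libraries they summed to 482 to 1317 CPM. Dcn was the largest part of these sums, at 203 and 159 CPM in LY6D- SCA1low and at means of 267 to 855 CPM in the other 5 populations. Col1a1 and Acta2 were not lowest in LY6D- SCA1low, with means of 5.72 and 1.55 CPM. Col1a1 had a mean of 1.475 CPM in LY6D+ SCA1low, and Acta2 one of 0.292 CPM in LY6D- SCA1int. The 6 erythroid markers, 4 of them globin genes, summed to 828 CPM in LY6D- SCA1low replicate 1, the library with the least Tgm2, and to 4.07 to 431 CPM in the other 11. The part of RNA from any of these cell types in the Tgm2 levels was not tested.

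**Figure D2:**
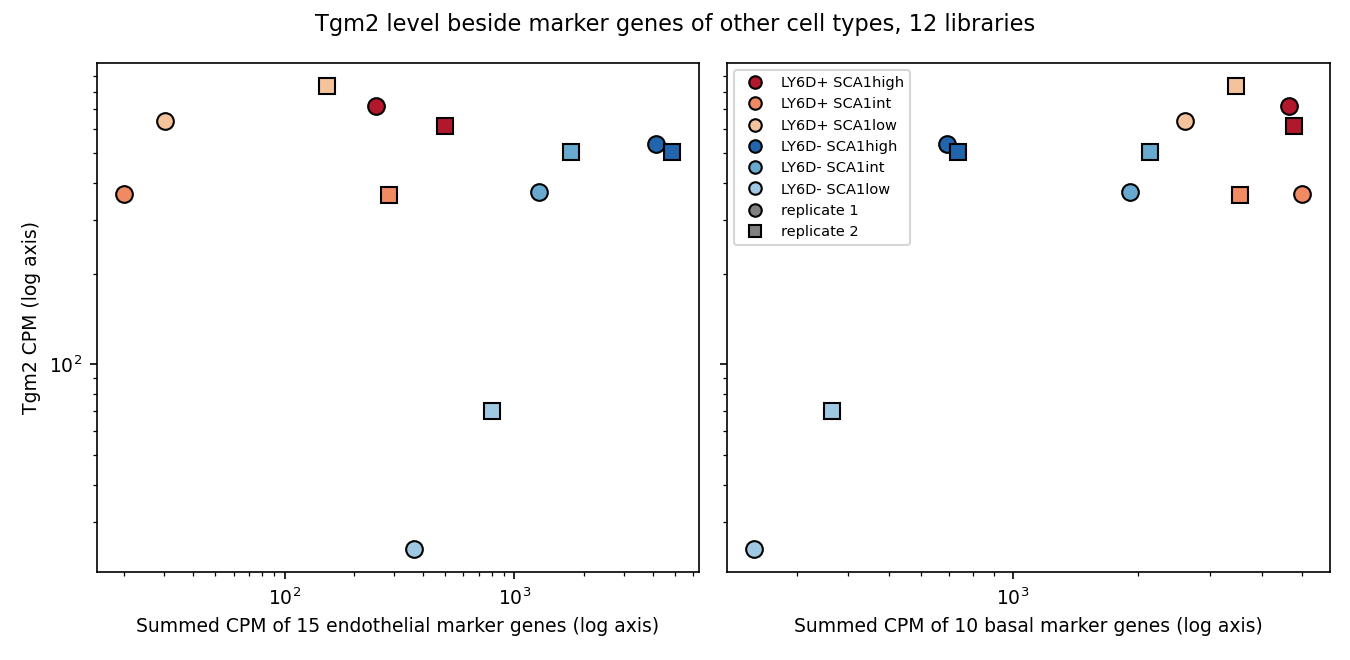
Tgm2 level of each library against the summed level of 15 endothelial (left) and 10 basal (right) marker genes, all in CPM on log axes; colours are populations and shapes replicates. The LY6D- SCA1low libraries, at 24.4 and 70.0 CPM of Tgm2, have the lowest basal sums (237 and 366 CPM), while endothelial sums run from 20.0 to 4851 CPM over the other 10 libraries.

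The genes with the pattern most like that of Tgm2, by Pearson's r of log2(CPM + 1) over the 12 libraries among 8097 genes, were Mfge8 (r = 0.96), S100a10 (0.94), Ano1 (0.94), Alkbh5 (0.94) and Ets1 (0.93). Mfge8 encodes a secreted bridge between cells and phosphatidylserine, S100a10 the partner of annexin A2, and Ano1 a chloride channel. Mfge8 stood at 23.8 ± 11.9 CPM (SD, n = 2) in LY6D- SCA1low and at means of 169 to 231 CPM in the other 5 populations. S100a10 stood at 11.8 ± 7.83 CPM there and at 104 to 265 CPM elsewhere, and Ano1 at 16.0 ± 11.7 CPM there and at 147 to 256 CPM elsewhere. Like Tgm2, these 3 genes were lowest in LY6D- SCA1low, which follows from picking them by correlation with Tgm2 over the same libraries. The 12 points share library, depth and population, so the correlations are descriptions.

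Partners of transglutaminase 2 at the cell surface and in the matrix did not move as a block. Of 15 listed genes, 13 were tested. Between LY6D states averaged over SCA1, a comparison that called 2.48% of all genes (1.27% higher and 1.21% lower), 1 rose and 0 fell in LY6D+ cells, and the median log2 fold change was 0.47 beside 0.03 over all genes. The gene that rose was Sdc4, for the heparan sulphate proteoglycan syndecan 4, with 2.05 ± 0.47 (edgeR adjusted p = 0.0131). Without both doubted libraries 2 rose and 0 fell. DESeq2 called 3 higher and 2 lower, but over all genes it called 2208 in this comparison against 379 by edgeR. Pdia3 (-0.92 ± 0.28), Itga5 (-6.81 ± 2.13) and Thbs1 (1.99 ± 0.67) did not pass, with edgeR adjusted p-values of 0.0692, 0.0797 and 0.0964.

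Between SCA1high and SCA1low averaged over LY6D, which called 1.21% of all genes (0.432% higher and 0.779% lower), 0 partners rose and 1 fell in SCA1high cells. This was Pdia3, a protein disulphide isomerase of the endoplasmic reticulum, with -1.75 ± 0.34 (edgeR adjusted p = 0.00407). DESeq2 called 2 higher and 1 lower, but over all genes it called 1303 in this comparison against 185 by edgeR. Mfge8 (1.72 ± 0.46) and Lrp1 (1.88 ± 0.77), a receptor that takes up ligands from the cell surface, did not pass, at edgeR adjusted p-values of 0.0684 and 0.341. The median of the 13 was 0.86 beside 0.15 over all genes. At SCA1low, where 0.472% of all genes were called, 1 of 13 differed between LY6D states, with a median of 1.34 beside 0.20 over all genes. This was Mfge8, with 3.01 ± 0.69, already named above for its likeness to Tgm2 over libraries that include these. Fibronectin and integrin genes on the list were not called in these comparisons.

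Among 29 genes of the cornified envelope, which transglutaminases 1 and 3 assemble in skin, 17 were tested. Sprr2a1 and Sprr2a2 on this list had the same mean in most populations, for example 43.7 CPM each in LY6D+ SCA1int. Their reads may be shared, so the medians below may count 1 signal more than once. Between LY6D states averaged over SCA1, 1 rose and 0 fell, where 2.48% of all genes were called (1.27% higher), with a median of 0.84 beside 0.03 over all genes. The gene was Evpl, for envoplakin of the cell cortex, with 6.47 ± 1.71 (edgeR adjusted p = 0.0381). Without both doubted libraries the count was 0, and with RLE scaling 0 (DESeq2 called 5, and 2208 over all genes against 379 by edgeR). Its levels spread widely within LY6D+ cells, from 1.59 to 59.2 CPM, against at most 1.02 CPM in LY6D- cells. Between SCA1high and SCA1low, where 1.21% of all genes were called (0.432% higher), 1 rose and 0 fell, with a median of 1.74 beside 0.15 over all genes. This was S100a10, with 2.14 ± 0.53 (edgeR adjusted p = 0.0382), and with RLE scaling the count was 0. S100a10 had 3.57 ± 0.80 within LY6D- cells (edgeR adjusted p = 0.0255) and 0.71 ± 0.73 within LY6D+ cells (edgeR adjusted p = 0.735). It was named above as like Tgm2 for its low level in LY6D- SCA1low.

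Tgm4 (ENSMUSG00000025787, chr9:123034726-123067561, plus strand) was the most variable member. It was highest at low SCA1 and lower in LY6D+ than in LY6D- cells at each SCA1 level. In LY6D- cells it stood at 217 and 220 CPM at SCA1high, 1119 and 958 CPM at SCA1int, and 4710 and 3572 CPM at SCA1low. In LY6D+ cells it stood at 91.5 and 4.0 CPM at SCA1high, 181 and 138 CPM at SCA1int, and 1265 and 1573 CPM at SCA1low. At each SCA1 level both LY6D+ libraries were below both LY6D- libraries, and in each LY6D state the libraries of the 3 SCA1 levels did not overlap.

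The population means fell in the order LY6D- SCA1low (4141 ± 805 CPM, SD, n = 2), LY6D+ SCA1low (1419 ± 218), LY6D- SCA1int (1038 ± 114), LY6D- SCA1high (218 ± 2.35), LY6D+ SCA1int (160 ± 30.7) and LY6D+ SCA1high (47.8 ± 61.9). No neighbours in this order overlapped by library. Tgm4 ranked 21 among 15270 tested genes in LY6D- SCA1low, 90 in LY6D+ SCA1low and 2828 in LY6D+ SCA1high. The LY6D+ SCA1high replicates differed 22.9-fold, with 2036 counts in replicate 1 and 34 in replicate 2, the widest gap between replicates of this gene.

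Across SCA1, Tgm4 was lower in SCA1high than in SCA1low by a log2 fold change of -4.57 ± 0.49 (SE) averaged over LY6D, or 23.7-fold, with an edgeR adjusted p of 3.53e-07 in a comparison that called 0.779% of genes as lower. The change was 29.6-fold within LY6D+ cells (-4.89 ± 0.70, edgeR adjusted p = 0.00015), a comparison that called 0.327% of genes. It was 19.0-fold within LY6D- cells (-4.24 ± 0.68, edgeR adjusted p = 0.000576), where 0.635% were called. The step from SCA1int to SCA1low passed (SCA1int over SCA1low -2.57 ± 0.45, edgeR adjusted p = 0.00219, with 0.334% called). The step from SCA1high to SCA1int missed (-1.99 ± 0.44, edgeR adjusted p = 0.0582), and passed in 17 of 21 other ways of fitting. Without LY6D+ SCA1high replicate 1 the averaged change was -6.35 and that within LY6D+ cells -8.47, and without replicate 2 the latter was -4.23. The call within LY6D+ cells was lost when only its own 4 libraries were fitted (-4.91, edgeR adjusted p = 0.148).

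Between LY6D states, Tgm4 was 4.42-fold lower in LY6D+ cells averaged over SCA1, a log2 fold change of -2.14 ± 0.36 (edgeR adjusted p = 0.000549, with 1.21% of genes called as lower), lower in 6 of 6 libraries than both LY6D- libraries of the same SCA1 level. Without LY6D+ SCA1high replicate 1 it was -3.33. Taken level by level, no difference passed: it was -2.19 ± 0.62 at SCA1high, -2.70 ± 0.64 at SCA1int and -1.55 ± 0.61 at SCA1low, with edgeR adjusted p-values of 0.214, 0.10 and 0.408. These 3 differences passed in 14, 16 and 11 of 21 other ways of fitting, with the same sign in all. In each fit that passed the SE was smaller, at 0.29 to 0.56, 0.31 to 0.54 and 0.29 to 0.40 beside 0.62, 0.64 and 0.61, also where the library left out belonged to another SCA1 level. The cause of the smaller SE was not tested. The LY6D effect at SCA1high did not differ detectably from that at SCA1low (-0.64 ± 0.84, interval -2.37 to 1.09, edgeR adjusted p = 0.885, with 0.0393% of genes called) or at SCA1int (0.51 ± 0.84, interval -1.22 to 2.24, edgeR adjusted p = 0.931). The sign of both depended on LY6D+ SCA1high: without replicate 1 they were -4.25 and -3.11, which passed (edgeR adjusted p = 2.6e-07 and 0.00018), and without replicate 2 they were 0.01 and 1.14, which did not.

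Basal sums were higher in LY6D+ than in LY6D- libraries at every SCA1 level, and endothelial sums were lower, with the values given above. Fibroblast and smooth muscle sums, of which Dcn was the largest part, were lowest in both LY6D- SCA1low libraries, where Tgm4 was highest. The erythroid sum was 828 CPM in replicate 1 of this population and 7.36 CPM in replicate 2. The sums of 12 leukocyte and macrophage markers were 5.97 to 89.8 CPM in all libraries, with Ptprc at 4 counts or fewer. Their part in the Tgm4 differences was not tested. Without both doubted libraries the LY6D difference at SCA1high was -1.26 and the step from SCA1high to SCA1int -1.52.

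**Figure D3:**
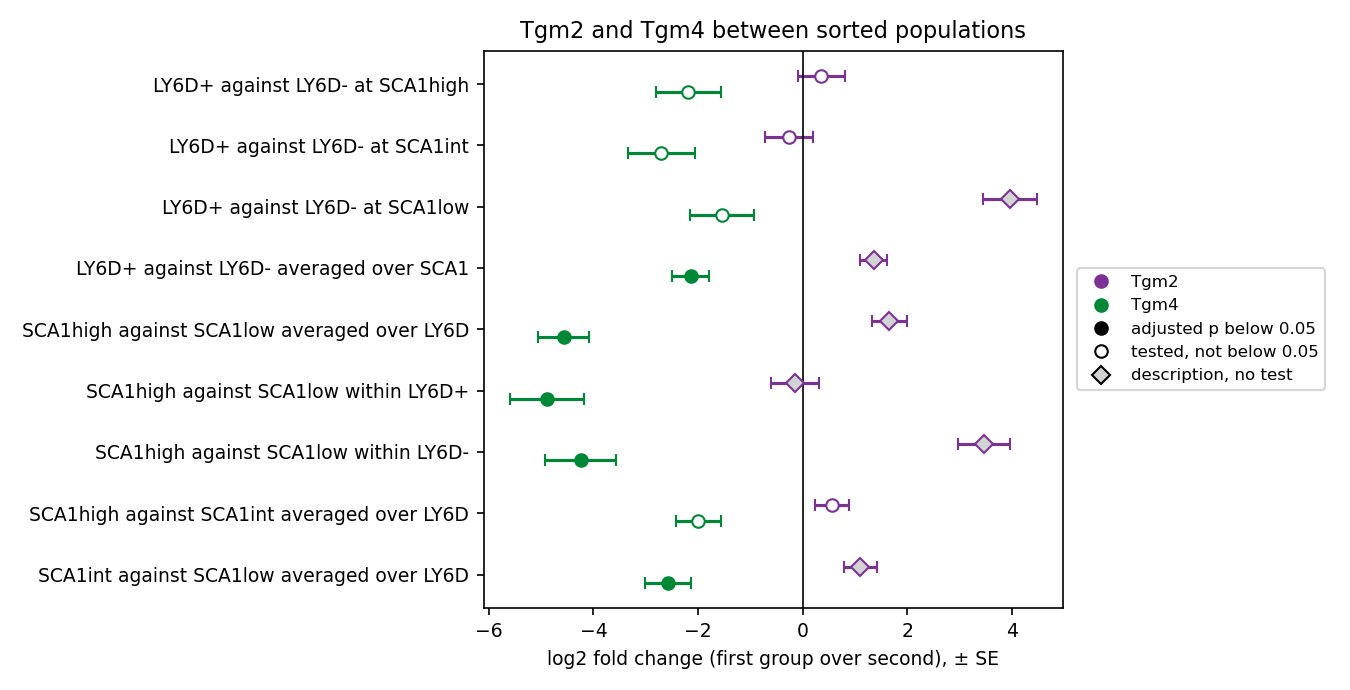
Log2 fold changes of Tgm2 (purple) and Tgm4 (green) in 9 comparisons, with bars of 1 SE; filled circles passed edgeR's quasi-likelihood test at an adjusted p below 0.05, open circles did not, and grey diamonds are descriptions that hold the libraries on which Tgm2 was picked. Tgm4 is below 0 in all 9, from -1.55 to -4.89, and Tgm2 runs from -0.26 to 3.96.

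The gene most like Tgm4 over the 12 libraries was Zdhhc3 (r = 0.98), which encodes a palmitoyltransferase of the Golgi and overlaps Tgm4 tail to tail. Zdhhc3 lies on the minus strand at chr9:123066160-123113205. It shares 1402 bases with Tgm4, from 123066160 to 123067561, of which 830 are exonic in both genes, all of them in the last exon of Tgm4, where 3' tags fall. Zdhhc3 held 0.654 to 1.04 counts per Tgm4 count in 11 libraries, with a median of 0.849. In LY6D+ SCA1high replicate 2 it held 148 counts against 34 of Tgm4, a ratio of 4.35. So counts of the 2 genes ran in near parallel in 11 libraries and parted where both were lowest.

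The strand setting of the counting is not given in the sources used here, so reads of Tgm4 and Zdhhc3 in the shared exon cannot be told apart. Fitted the same way, Zdhhc3 had a log2 fold change of -1.92 ± 0.27 between LY6D states averaged over SCA1 and of -4.39 ± 0.36 between SCA1high and SCA1low. The Tgm4 values beside these are -2.14 and -4.57. All Tgm4 levels, above and below, therefore carry this limit, and the same holds for the levels of Zdhhc3.

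**Figure D4:**
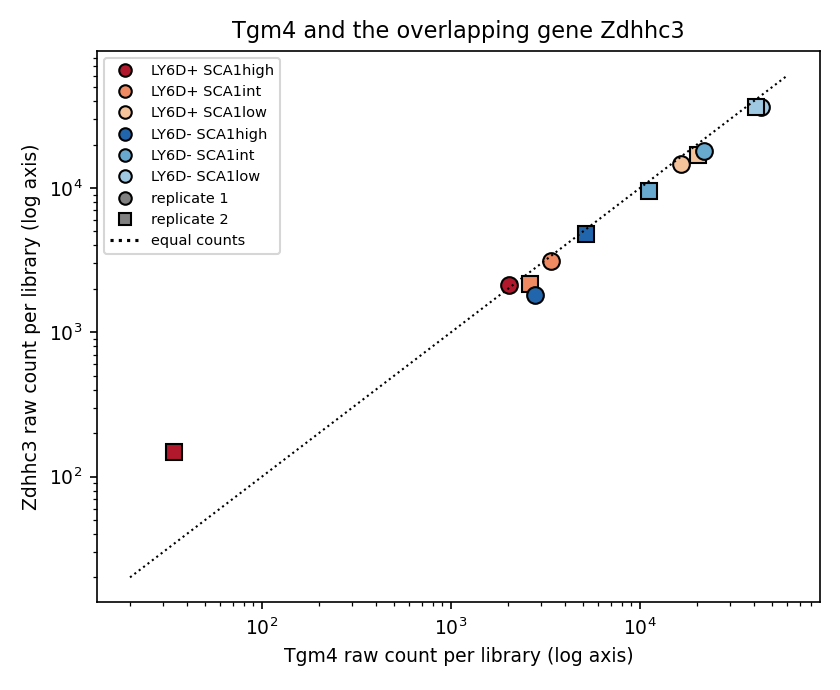
Raw counts of Zdhhc3 against raw counts of Tgm4 in each library, on log axes; the dotted line marks equal counts, colours are populations and shapes replicates. In 11 libraries the points follow the line at 0.654 to 1.04 Zdhhc3 counts per Tgm4 count, and LY6D+ SCA1high replicate 2 lies above it with 148 against 34.

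Tgm4 also overlaps Gm49323, a noncoding gene on its own strand, over 10294 bases, of which 307 are exonic in both and 0 lie in the last exon of Tgm4. Gm49323 could not be matched by symbol to a single gene in the counts, so it was not analysed here.

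Tgm2 has 2 overlapping genes. Rprd1b, on the opposite strand, shares 15896 bases with Tgm2, of which 370 are exonic in both and 0 lie in the last exon of Tgm2, and it held 0.00528 to 0.198 counts per Tgm2 count in 10 libraries. In LY6D- SCA1low, where Tgm2 was lowest, the ratio was 4.71 and 0.288. Gm20412, also on the opposite strand, shares 633 exonic bases with the last exon of Tgm2 and held 0 to 118 counts.

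After Zdhhc3, the genes most like Tgm4 were Fcgbp (r = 0.97), a mucin-like secreted protein gene, Tcaf3 (0.97), Akr1b3 (0.95), for aldose reductase, and Man1a (0.94), for a Golgi mannosidase that trims glycans. Fcgbp rose from 46.8 ± 14.1 CPM (SD, n = 2) in LY6D- SCA1high to 891 ± 33.5 in LY6D- SCA1low. In LY6D+ cells it rose from 2.94 ± 3.16 at SCA1high to 210 ± 12.1 at SCA1low. Tcaf3 ran from 3.56 ± 3.54 CPM in LY6D+ SCA1high to 2096 ± 455 in LY6D- SCA1low. Both had the same lowest and highest population as Tgm4.

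Prostatic secretory genes are the class to which Tgm4 belongs by its known role, and several of them fell in the comparisons in which it fell. Of 16 listed genes 14 were tested, Tgm4 not among them. Between SCA1high and SCA1low averaged over LY6D, 0 rose and 9 fell, with a median log2 fold change of -3.96 beside 0.15 over all genes, of which 0.779% were called lower. Pbsn, for the secreted lipocalin probasin, fell by 4.88 on the log2 scale (SE 0.23), Spink1, a protease inhibitor, by 4.35 (SE 0.25), Sbp, for spermine binding protein, by 4.31 (SE 0.36) and Defb50, a defensin, by 3.14 (SE 0.19). Their edgeR adjusted p-values were 3.48e-09 or lower.

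Between LY6D states averaged over SCA1, 0 of the 14 rose and 6 fell in LY6D+ cells, with a median of -1.85 beside 0.03 over all genes, of which 1.21% were called lower. Spink1 had -2.91 ± 0.19, Pbsn -2.18 ± 0.16, Sbp -2.60 ± 0.27 and Sbpl, a near-identical copy of Sbp whose reads may be split with it, -2.71 ± 0.43. At SCA1high alone, where 0.262% of genes were called, 1 rose, 2 fell and 5 of the 14 had positive values. The gene that rose there was Defb50, with 1.18 ± 0.25 (edgeR adjusted p = 0.0226). At SCA1low, where 0.472% of genes were called, 0 rose, 3 fell and 3 of the 14 had positive values. Not every listed gene was thus highest in LY6D- SCA1low. Earlier results of these data already showed Spink1, Pbsn and Sbp to be lower, so the list is no independent support for Tgm4. Tgm4's -2.14 lay close to the value of Pbsn, and its -4.57 across SCA1 lay between those of Sbp and Pbsn.

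The proteins that transglutaminase 4 clots come from the seminal vesicle. Of 7 listed genes of seminal vesicle proteins 4 were tested, and which of these proteins the enzyme clots was not measured here. Between SCA1high and SCA1low averaged over LY6D, 0 rose and 2 fell, with a median of -4.29 beside 0.15 over all genes, of which 0.779% were called lower. Those that fell were Svs5 with -3.91 ± 0.55 and Svs4 with -4.68 ± 0.69 (edgeR adjusted p = 4.5e-05 and 9.41e-05). Svs2, whose product is the main clotted protein of the plug, had -1.28 ± 0.53 and did not pass (edgeR adjusted p = 0.343). Between LY6D states averaged over SCA1, 0 rose and 0 fell, with a median of -0.19 beside 0.03 over all genes, of which 2.48% were called. edgeR had 0 of the 4 at an unadjusted p below 0.05, DESeq2 called 0, and without both doubted libraries 1 fell. At SCA1low, replicates of both genes that fell were further apart than those of Tgm4: Svs4 stood at 3077 and 607 CPM in LY6D+ SCA1low and at 1194 and 176 CPM in LY6D- SCA1low. Svs5 stood at 8099 and 1254 CPM in LY6D+ SCA1low, and at 3025 and 213 CPM in LY6D- SCA1low. Svs4 and Svs5 were thus highest in LY6D+ SCA1low replicate 1, whereas Tgm4 was highest in LY6D- SCA1low replicate 1, and the difference between their LY6D effects and that of Tgm4 was not tested.

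**Figure D5:**
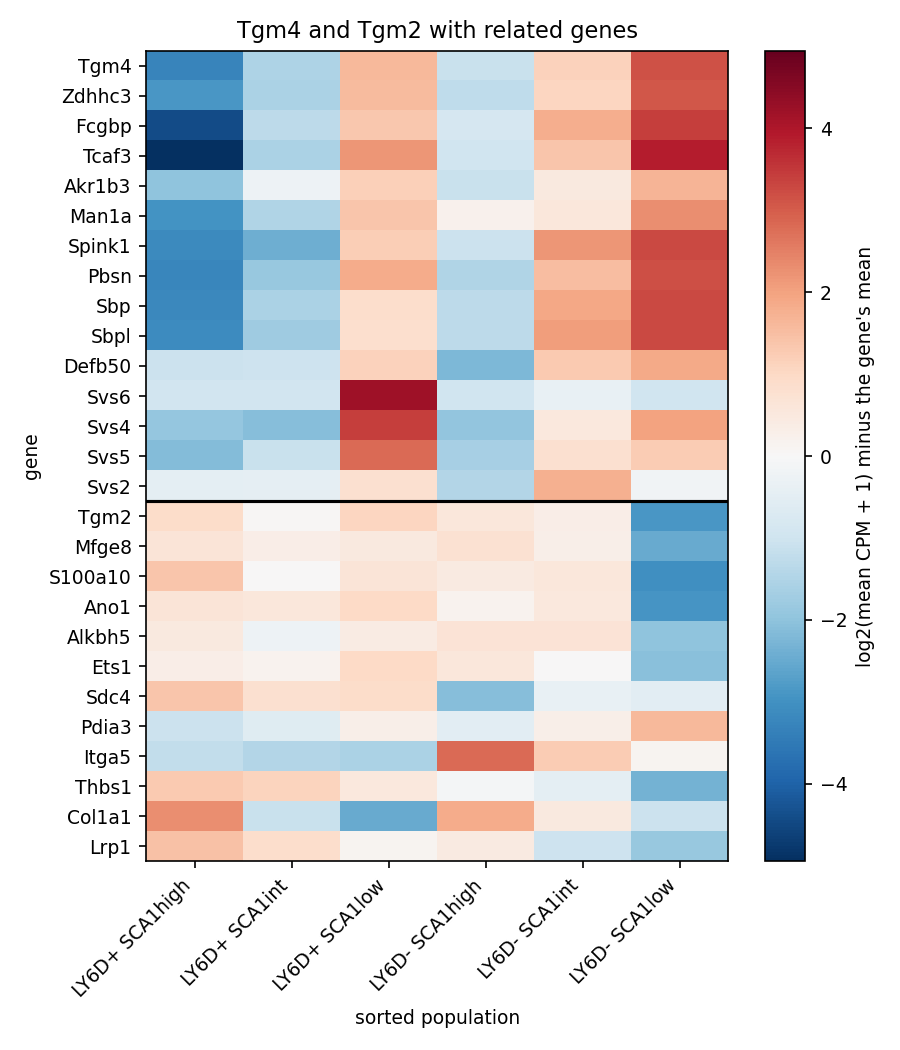
Population means of Tgm4 (above the line) and Tgm2 (below it) with the genes most alike and the named genes of the secretory, plug and partner lists; colour is log2(mean CPM + 1) minus the gene's mean over 6 populations. Tgm4 and the secretory genes shown here are highest in LY6D- SCA1low, at 4141 CPM for Tgm4. Tgm2, Mfge8, S100a10 and Ano1 are lowest there, at 47.2, 23.8, 11.8 and 16.0 CPM.

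Tgm2 and Tgm4 took turns as the transglutaminase gene with the most counted tags in a population. Tgm4 gave 0.128 and 0.00648 tags per Tgm2 tag in LY6D+ SCA1high, 0.493 and 0.379 in LY6D+ SCA1int, and 1.98 and 1.88 in LY6D+ SCA1low. In LY6D- cells it gave 0.404 and 0.436 at SCA1high, 3.0 and 1.9 at SCA1int, and 193 and 51.0 at SCA1low. Tgm2 tags thus outnumbered Tgm4 tags in both SCA1high populations and in LY6D+ SCA1int, and Tgm4 tags outnumbered Tgm2 tags in the other 3. The ratio is a description, since it holds the libraries on which Tgm2 was picked. It also carries the limit set by Zdhhc3, whose reads cannot be told from those of Tgm4 in the shared exon. Over the 12 libraries the levels of the 2 genes, as log2(CPM + 1), had a Pearson's r of -0.54, with library, depth and population shared.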

How the data were processed

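RNA was measured in 12 libraries of 6 sorted populations (2 each). Per the labels' protocols, libraries were made from 10 to 20 ng of RNA with Lexogen's QuantSeq 3' FWD kit, which reads transcript 3' ends; no molecular identifiers are named, so PCR copies may be counted and limits from counts cover counting error only. Per the submitters' processing notes, reads were handled with STAR 2.5.1 and cutadapt 1.9.1, Picard 1.96 and SAMtools 1.3.1, and with edgeR, Subread and featureCounts, on build mm10, in an order and with roles that are not stated; annotation and strand setting were not given in the sources used here.

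Per Ensembl gene, the authors deposited raw counts. They also deposited a table of signal values, which is the count divided by 1 factor per library; it served for 1 alternative. Symbols were matched for 48349 of 48795 identifiers. Coordinates and sequences are from GENCODE M21 (GRCm38, the assembly of mm10), 1-based.

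In R 4.3.3, edgeR 4.0.16 was run with TMM scaling, filterByExpr by population, which left 15270 genes, and 1 mean for each population in a fit to 12 libraries (6 residual degrees of freedom, common dispersion 1.65), glmQLFit and glmQLFTest, with Benjamini-Hochberg adjustment over these genes and a call below 0.05. SE is the log2 fold change over the root of F. The fit was tested on simulated data with known changes. Every replicate 1 column carries the prefix HN6 and every replicate 2 column HN7, and no label says what these mean. Deviations of same-numbered libraries correlated at -0.197 to 0.132 over 15 pairs of populations (2 above 0.1), so the numbers were not treated as pairs.

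Members, gene lists, alternatives and the rule for named genes were chosen with earlier results of these data known. The rule names the 4 members, 5 other family genes, the 5 genes most like each abundant member, and at most 4 members of a list per averaged comparison, by p-value. Rprd1b, Gm49323, Pecam1, Sprr2a1, Sprr2a2 and Defb50 at SCA1high were added after seeing the data. The alternatives were RLE factors, library size alone, no filter, DESeq2 1.42.0, each library left out, a block for the replicate number, both doubted libraries left out, ribosomal RNA features left out, limma 3.58.1 trend on log2(signal + 1), and the libraries of a comparison alone. List counts were also taken with DESeq2, both other scalings and without both doubted libraries, which was added after seeing the data.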

Additional observations from a re-analysis of the deposited data

Results flagged for a closer look

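The estimated LY6D difference of Tgm2 changed sign between SCA1 levels without overlap of libraries. Its log2 fold change of LY6D+ over LY6D- was 0.36 at SCA1high, with both LY6D+ libraries higher, and -0.26 at SCA1int, with both LY6D+ libraries lower. The difference between these effects, 0.62 ± 0.64, did not pass edgeR's quasi-likelihood test (adjusted p = 0.865). At SCA1int the nearest libraries were close, at 368 CPM (LY6D+) and 373 CPM (LY6D-). The value there ran from -0.42 to 0.05 with 1 library left out, so its sign was not stable. Between SCA1int (-0.26) and SCA1low (3.96) the directions also differed, and this difference was not tested, since Tgm2 was picked on the libraries at SCA1low.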

How the results depend on the processing

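Each fold change was recomputed under 21 alternatives (20 for LY6D states averaged over SCA1). For Tgm4, the LY6D average (-3.33 to -1.88), SCA1high against SCA1low averaged (-6.35 to -4.01) and within LY6D- cells (-4.71 to -3.70) kept direction and call in all. SCA1high against SCA1low within LY6D+ cells lost its call with its libraries alone (-4.91), and SCA1int against SCA1low with limma-trend (-2.61). Calls were gained at SCA1high without the filter (-2.20), with the replicate block (-2.51), and with 1 library left out (-5.78 to -1.52). They were gained at SCA1int without the filter (-2.61), with the replicate block (-2.72), without both doubted libraries (-2.68), with its libraries alone (-2.55) and with 1 left out (-2.89 to -2.46), and at SCA1low without the filter (-1.58), without both doubted libraries (-1.72), with its libraries alone (-1.70) and in 8 of 12 fits with 1 left out (-1.74 to -1.53; -1.74 to -1.49 over all 12). SCA1high against SCA1int gained its call without the filter (-2.09), with DESeq2 (-2.04), with the replicate block (-2.12), without both doubted libraries (-1.52), without ribosomal RNA features (-1.99) and with 1 left out (-3.78 to -1.59). The block changed no other call of Tgm2 or Tgm4, and the cause of these gains was not tested. The Tgm4 LY6D effect at SCA1high minus that at SCA1low ran from -4.25 (which passed) to 0.01 with 1 library left out and was 0.46 without both doubted libraries; minus that at SCA1int it ran from -3.11 (which passed) to 1.14 and was -0.75 with limma-trend. The Tgm2 LY6D difference at SCA1int ran from -0.42 to 0.05 with 1 left out, and the other tested Tgm2 differences kept their sign, uncalled, in all 21. At SCA1low the described Tgm2 difference ran from 3.16 to 4.93.

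Counts of called genes depended on the fit. They were 40 at SCA1high (11 with limma-trend to 1132 with DESeq2), 31 at SCA1int (7 to 532), 72 at SCA1low (57 to 1663), 379 for the LY6D average (218 to 2208), 185 for SCA1high against SCA1low (121 to 1303), 97 within LY6D- cells (62 to 586), 21 for SCA1high against SCA1int (8 to 516) and 51 for SCA1int against SCA1low (29 to 764), with the same tools at both ends, and 50 within LY6D+ cells (18 with its libraries alone to 1051 with DESeq2). Scaling moved the median of all genes for SCA1high against SCA1low from 0.15 to -0.12 (RLE) and 0.63 (library size), and the share of calls that were higher from 35.7% to 18.2% and 70.5%; for the LY6D average that share was 51.2%, and 35.8% with RLE. Counts of secretory genes were 6 or 7 lower for LY6D states and 8 to 12 for SCA1 in 5 ways of fitting. Tgm4 was lower in each of 9 comparisons under all 3 scalings. At these depths Tgm3 and, outside 1 library, Tgm1 could not be told from 0.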
